A study of Mus musculus with 27 samples.

Results

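The 7 keratin genes described here, which mark the basal and the activated layers of stratified epithelia, were followed through mouse thyroid gland organoids (mTGOs): Krt5, Krt14 and Krt15, which mark basal cells, and Krt17, Krt16, Krt6a and Krt6b, which mark epithelium under stress or repair. These 7 rows were taken by name from the 50559 gene rows of the deposited table, and all 7 passed the filter on low counts in every comparison. The organoids came from thyroid glands of female C57BL/6 mice of 8 to 12 weeks, and every group grew in the same medium with EGF, FGF2 and the ROCK inhibitor Y-27632. They grew in Matrigel for 5 days and were then left non-irradiated or exposed to photons at 2, 4 or 7 Gy. RNA was taken at day 5 (0 Gy only), day 7 and day 11 (0, 2, 4 and 7 Gy at each), which gave 9 groups of 3 libraries and 27 libraries in all. By the names of the count columns, the same 3 cultures supply every group. The main fits ignore this, and their p-values measure the spread of libraries taken as independent. Fits with culture as a replicate block take out the level differences between cultures. Either way the p-values speak for these 3 cultures only. The sample labels give each of the 3 libraries of a group a mouse of its own. The count columns carried the names mTG11, mTG12 and mTG14, called cultures here. Below, each set of 3 values is given in that order.

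Keratins are the intermediate filament proteins of epithelia. A filament is built from heterodimers of an acidic type I and a basic type II keratin, so the genes are usually described in partners. Krt5 (type II) and Krt14 (type I) form the network of basal keratinocytes that is anchored to hemidesmosomes and desmosomes, and Krt15 (type I) is a further basal partner of Krt5 that is often used as a marker of quiet progenitors. Krt6a and Krt6b (type II) and their partners Krt16 and Krt17 (type I) are low or restricted in resting interfollicular epidermis and are induced at wound edges, in hyperproliferation and by ultraviolet light. None of the 7 is a marker of the follicular thyrocyte, whose keratins are the simple ones (Krt7, Krt8, Krt18 and Krt19).

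The 7 genes lie in the clusters that hold the mouse type I and type II keratins, all on the minus strand. In the GENCODE annotation of GRCm39, the build the reads were aligned to, the type I genes have 8 exons each in their main transcript and stand at chr11:100022584-100026775 (Krt15), chr11:100093988-100098490 (Krt14), chr11:100136917-100139795 (Krt16) and chr11:100147040-100151974 (Krt17). The type II genes have 9 exons each and stand at chr15:101584458-101588722 (Krt6b), chr15:101598345-101602742 (Krt6a) and chr15:101615505-101621346 (Krt5).

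Close copies matter here, because the deposited counts are in part fractional, as a count that divides reads among several matching genes gives. Krt6a and Krt6b shared 97.6% of their coding bases, Krt14 and Krt16 82.9%, Krt16 and Krt17 70.6%, and Krt5 shared 75.9% with Krt6a. The last 120 coding bases of Krt6a (chr15:101598905-101599024) and Krt6b (chr15:101584967-101585086) show how alike this pair is. They are printed 5′ to 3′ on the coding strand, without the stop codon, and capitals mark bases that differ from or are missing in the other gene.
Krt6a: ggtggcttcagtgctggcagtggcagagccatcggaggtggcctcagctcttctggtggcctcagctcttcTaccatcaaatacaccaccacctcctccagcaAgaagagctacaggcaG
Krt6b: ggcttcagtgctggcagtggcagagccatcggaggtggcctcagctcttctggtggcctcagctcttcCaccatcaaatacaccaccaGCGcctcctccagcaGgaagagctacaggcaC
The libraries were made with Smart3SEQ, which reads the 3′ ends of transcripts, and there the genes differed more. Over the last 500 transcript bases Krt6a and Krt6b were 68.3% identical with no shared run longer than 22 bases, against a shared run of 280 bases in the whole transcripts. Windows of 75 bases, the read length, that occurred in a transcript of any other gene made up 56.2% of all windows of Krt6a and 39.6% of those of Krt6b, but 7.04% and 0% of the windows in the last 500 bases. For Krt16 the shares were 27.7% of all windows and 7.75% of the last ones, shared with Krt14 and with the predicted gene Gm11597. Krt15 and Krt17 shared no exact window with another gene. Shorter runs are not counted by these windows. Within the last 500 bases Krt17 shared a run of 71 bases with Krt14 and of 55 with Krt16. Krt14 and Krt16 shared a run of 55 bases there. Reads that match 2 genes with a mismatch were not examined.

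Fractional counts were most common in Krt6a, Krt6b and Krt5. Within a tolerance of 0.001, the count was a whole number in 1 of 27 libraries for Krt6a, 1 for Krt6b and 2 for Krt5, in 7 for Krt14, 12 for Krt17, 14 for Krt16 and 15 for Krt15. Krt17 and Krt15, which shared no exact window, were thus fractional in 15 and 12 libraries. The part of the reads that was divided is not given by the files, and the levels of all 7, of Krt6a and Krt6b above all, are uncertain by it. Gm11597 had 0 to 43.3 CPM (counts scaled to the library total), and averaged 38.4 CPM on day 5, 10.8 on day 7 and 0.810 on day 11 without irradiation. The predicted gene Gm5478, which shared windows with Krt5, Krt6a and Krt6b, had counts in all 27 libraries, at 6.57 to 50.9 CPM. Without irradiation it averaged 37.4 CPM on day 5, 25.6 on day 7 and 14.6 on day 11. Gm5414, which shared windows with Krt6b, had 0 to 3.73 CPM. On the opposite strand, Gm49428 overlaps Krt5 and Krt6a and was at 0 in all 27 libraries.

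The upstream sequence is described for the 6 members that were lower at day 11 than at day 5, with no window of the member that was higher to set beside them, so nothing about direction or keratin type can be read from it. In the 250 bases before the start of the main transcript, the AP-1 consensus (TGANTCA, either strand) occurred in Krt14, Krt16 and Krt17 of these 6 and in 6.17% of the 21770 protein-coding promoters of the same length. The TATA box letters (TATAAA) occurred in Krt16 and in 11.9% of all promoters. The AP-2 consensus (GCCNNNGGC, in 13.2% of all promoters) and the letters GGGCGG (Sp1, in 36.3% of all promoters), CCAAT (36.5%) and TGACNNNGC (antioxidant response element, 9.69%) occurred in none of the windows of these 6 genes. No 2 matches overlapped. The 3 windows with a match are printed 5′ to 3′ on the gene's strand, with all matches in capitals, from chr11:100098491-100098740 (Krt14), chr11:100139796-100140045 (Krt16) and chr11:100151975-100152224 (Krt17).
Krt14: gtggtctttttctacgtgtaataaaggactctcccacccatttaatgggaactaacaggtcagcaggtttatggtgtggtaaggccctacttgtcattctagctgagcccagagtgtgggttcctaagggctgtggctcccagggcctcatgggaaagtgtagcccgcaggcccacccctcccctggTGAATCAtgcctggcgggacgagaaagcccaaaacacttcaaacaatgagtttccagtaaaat
Krt16: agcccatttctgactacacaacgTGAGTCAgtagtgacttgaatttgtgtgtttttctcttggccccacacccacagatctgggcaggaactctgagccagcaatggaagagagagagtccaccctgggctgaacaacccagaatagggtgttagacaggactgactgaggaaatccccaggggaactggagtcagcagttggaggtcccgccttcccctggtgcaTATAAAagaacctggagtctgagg
Krt17: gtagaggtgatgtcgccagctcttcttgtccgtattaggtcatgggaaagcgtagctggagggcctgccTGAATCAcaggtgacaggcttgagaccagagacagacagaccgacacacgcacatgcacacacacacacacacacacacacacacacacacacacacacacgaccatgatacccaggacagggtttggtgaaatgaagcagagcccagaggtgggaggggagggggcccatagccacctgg
A match is a run of letters and no measurement of binding. The windows of Krt5, Krt6a and Krt6b held none of the 6 motifs, and those of Krt6a and Krt6b were 71.1% identical to each other.

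Library totals ranged from 2528866 to 5723150 counts, so 3 counts, taken as the least that a library can show, stood for 0.524 to 1.19 CPM, and the lowest keratin value of all, Krt16 at 27.7 CPM, lay far above it. CPM is not divided by transcript length, since a 3′-end library takes its reads from the transcript end, and levels of different genes are compared here only as ratios that change between groups. The labelled tissue is thyroid, but a defining thyrocyte gene was low: Tg, the thyroglobulin precursor of thyroid hormone, ranged from 0 to 16.7 CPM, while the thyroid transcription factor genes Nkx2-1 (6.32 to 21.5 CPM) and Foxe1 (20.3 to 43.0 CPM) were present in every library. The 7 keratins together took 0.663% to 3.16% of all counts of a library. The day 7, 2 Gy and the day 11, 7 Gy libraries of culture mTG12 stood apart from the others of their groups for several keratins, and the results that turned on them are given also without them.

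The first question was how the keratins move as organoids grow without irradiation. The sum of the 7 went from 2.88% ± 0.311 of all counts (day 5) to 1.67% ± 0.0838 (day 7) and 0.760% ± 0.0907 (day 11) with SD over 3 libraries. The share of counts from mitochondrial genes moved the other way, from 2.76% to 4.27% (day 5) to 4.80% to 6.84% (day 7) and 6.90% to 8.81% (day 11), and its part in the keratin values was not tested. By edgeR, with p-values adjusted over all genes of a fit, all 7 differed between day 11 and day 5 at an adjusted p under 0.05, beside 41.3% of all genes tested. Krt15 rose and the other 6 fell (21.3% of all genes rose and 20.1% fell), with folds from 2.21 for Krt5 to 41.2 for Krt16. Between day 7 and day 5, 5 of the 7 passed (1 higher, 4 lower) beside 21.6% of all genes called and 9.62% called lower, and with culture as a replicate block all 7 passed, beside 25.0%. Between day 11 and day 7, 5 passed, all lower, beside 21.2% of all genes called and 11.7% called lower. The median log2 fold change of the 7 was -1.63 between day 11 and day 5, against 0.06 for all genes tested.

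**Figure D1:**
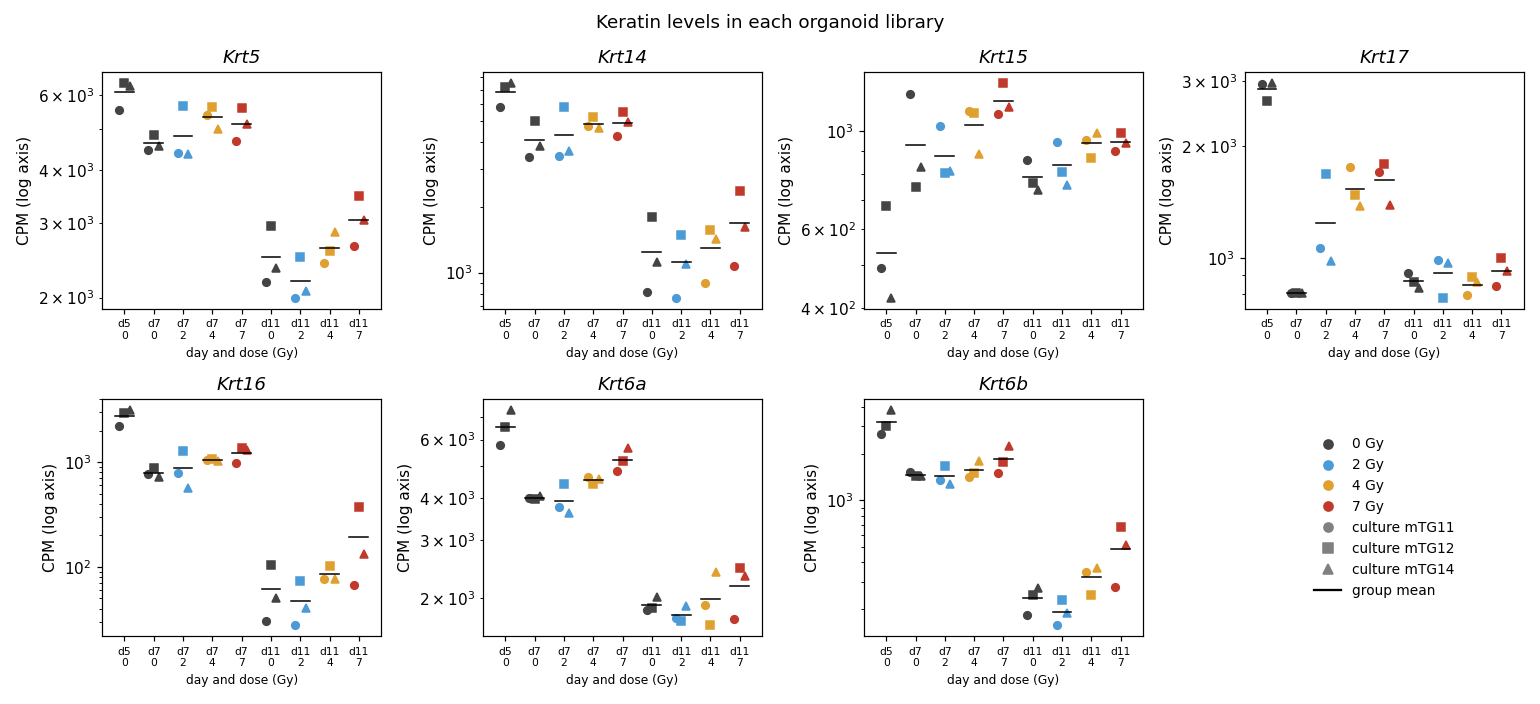
CPM of each keratin (log axis, a separate scale per panel) in every library, by day and dose; colours give the dose, symbols the culture, and black lines the mean of 3 libraries. Krt16 spans from 27.7 to 3164 CPM and Krt6b from 158 to 3816, while Krt15 is lowest at day 5 and Krt17 is high at day 5 and, at day 7, after irradiation.

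Among the basal keratins, Krt5 and Krt14 began together and then parted. Krt5, the type II partner, was at 5556, 6433 and 6328 CPM at day 5, at 4465, 4839 and 4569.8 at day 7 and at 2182, 2947 and 2355 at day 11. The 3 days did not overlap, and the change from day 7 to day 11 was the larger. Its log2 fold change was -0.90 (SE 0.106, edgeR adjusted p = 9.45e-05) between day 11 and day 7, and -0.25 (95% interval -0.48 to -0.02, edgeR adjusted p = 0.115) between day 7 and day 5. With the block the last difference passed (edgeR adjusted p = 0.0292), and all 3 cultures were lower at day 7.

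Krt14, the type I partner, had larger folds than Krt5. It was at 5839, 7178 and 7530.3 CPM at day 5, at 3427, 4987 and 3858 at day 7 and at 810.4, 1809.6 and 1116 at day 11. Day 11 lay below day 7 in each culture, and culture mTG12 stayed highest at both later days. From day 7 to day 11 its log2 fold change was -1.73 (SE 0.239, edgeR adjusted p = 0.000294), and against day 5 -2.31 (SE 0.243, edgeR adjusted p = 1.20e-05). Between day 7 and day 5 it was -0.59 (95% interval -1.10 to -0.08, edgeR adjusted p = 0.0930), and with the block -0.62 (edgeR adjusted p = 0.00288). The ratio of Krt14 to Krt5 CPM accordingly went from 1.12 ± 0.0696 at day 5 to 0.881 ± 0.135 at day 7 and 0.486 ± 0.122 at day 11 (SD, n = 3 each), and no test was run on this or the other ratios.

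Krt15 went the other way. It was at 492, 678 and 421 CPM at day 5, at 1209.8, 749 and 829.8 at day 7 and at 859.7, 762 and 736 at day 11. All these day 7 and day 11 libraries lay above all day 5 libraries, as for 14.6% and 22.8% of all genes. Culture mTG12 rose least. Its log2 fold change was 0.96 (SE 0.175, edgeR adjusted p = 0.00250) between day 7 and day 5 and 0.72 (SE 0.175, edgeR adjusted p = 0.00589) between day 11 and day 5. From day 7 to day 11 it was -0.24 (95% interval -0.62 to 0.14, edgeR adjusted p = 0.375). The ratio of Krt15 to Krt14 went from 0.0782 ± 0.0200 at day 5 to 0.239 ± 0.104 at day 7 and 0.714 ± 0.323 at day 11.

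Among the stress keratins, Krt17 fell in the first interval and did not pass in the second. Its CPM was 2934, 2653 and 2965 at day 5, 805, 806 and 802 at day 7 and 912, 862 and 829.8 at day 11. The 3 libraries at day 7 were nearly equal. Krt17 was higher in each day 11 library than in each day 7 library, as were 19.2% of all genes. Its log2 fold change was -1.68 (SE 0.0809, edgeR adjusted p = 3.98e-07) between day 7 and day 5 and 0.11 (95% interval -0.07 to 0.28, edgeR adjusted p = 0.394) between day 11 and day 7.

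Krt16, which like Krt17 pairs with the Krt6 proteins, fell in both intervals and had the widest range of the 7. It was at 2217, 2963 and 3164 CPM at day 5, at 764, 877 and 719.7 at day 7 and at 30.4, 103 and 50.04 at day 11. The days stood apart, and the highest culture stood further above the lowest at day 11, as a ratio, than before. On the log2 scale it changed by -1.67 (SE 0.286, edgeR adjusted p = 0.00164) in the first interval and -3.69 (SE 0.322, edgeR adjusted p = 1.03e-05) in the second. Without the mTG12 library at day 11 the second value was -4.28, and that between day 11 and day 5 went from -5.36 to -5.95. Krt16 per Krt17 was 0.980 ± 0.196 at day 5, 0.978 ± 0.0988 at day 7 and 0.0712 ± 0.0444 at day 11.

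Krt6a and Krt6b, the near-identical type II partners, both fell in both intervals, with the larger folds for Krt6b. Krt6a was at 5763, 6533 and 7371 CPM at day 5, at 3994, 3987 and 4069 at day 7 and at 1837, 1863 and 2023 at day 11. The 3 days did not overlap. Its log2 fold change was -0.56 (SE 0.0948, edgeR adjusted p = 0.00162) in the first interval and -1.08 (SE 0.0957, edgeR adjusted p = 1.21e-05) in the second.
Krt6b was at 2670.2, 3019 and 3816 CPM at day 5, at 1515, 1435 and 1435 at day 7 and at 185, 245 and 274 at day 11. Every culture fell in both intervals. For Krt6b the log2 fold change was -0.97 (SE 0.148, edgeR adjusted p = 0.000828) and then -2.64 (SE 0.158, edgeR adjusted p = 6.29e-07). The ratio of Krt6b to Krt6a was 0.481 ± 0.0317 at day 5, 0.364 ± 0.0138 at day 7 and 0.122 ± 0.0190 at day 11, and the values of the 3 days did not overlap. Since reads may have been divided between these genes, the ratio is that of the deposited counts.

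**Figure D2:**
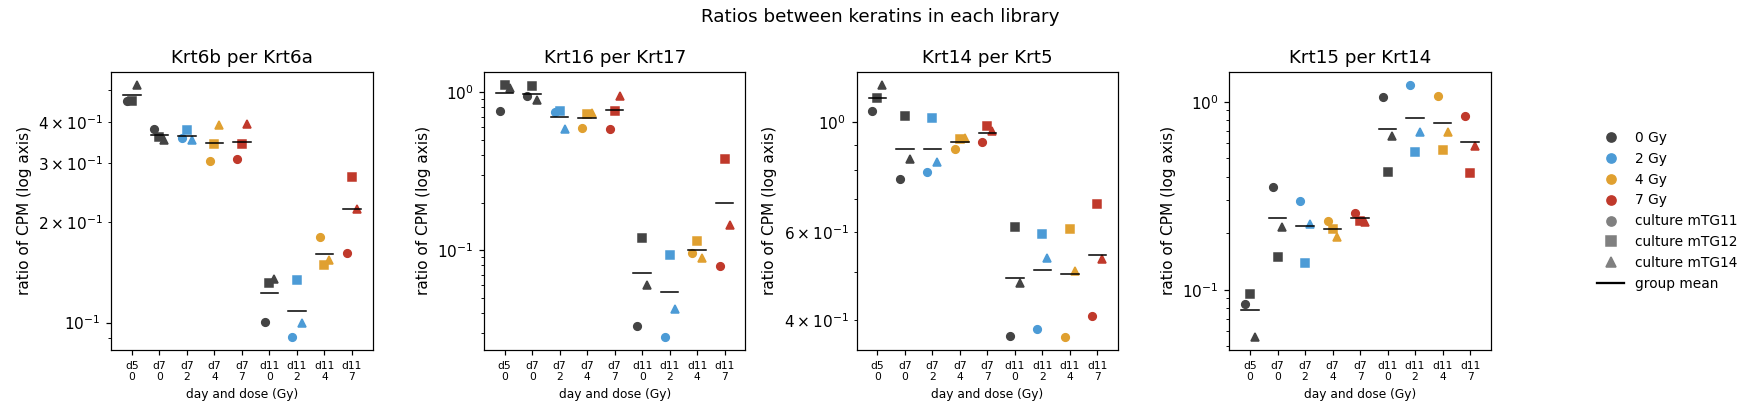
Ratios of CPM between keratins (log axes) in every library, by day and dose, with colours for dose, symbols for culture and black lines for the mean of 3 libraries. Without irradiation Krt6b per Krt6a goes from 0.481 to 0.122 and Krt16 per Krt17 from 0.980 to 0.0712 between day 5 and day 11, and Krt15 per Krt14 goes up from 0.0782 to 0.714.

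In bulk RNA, fewer cells of a type and less RNA per cell cannot be told apart. Markers of other cell types also moved over the days. The 6 fibroblast markers summed to 30.3 to 111 CPM at day 5 and 5.24 to 37.8 CPM at day 11, and 4 of the 6 were lower. The 5 multiciliated cell markers summed to 1.71 to 3.04 CPM at day 5 and 24.7 to 51.2 CPM at day 11, and all 5 were higher. The 4 immune markers summed to 5.52 to 14.3 CPM at day 5 and 38.1 to 65.2 CPM at day 11, with 1 of the 2 tested higher and the T cell gene Cd3e at 0 in all 27 libraries. The part of these cells in the keratin values was not tested. Of the other marker lists, 1 of 4 tested thyrocyte genes was higher at day 11 and the thymic gene Foxn1 (1.86 to 8.00 CPM over the 27 libraries) was lower. The endothelial genes and the C cell gene Calca, at most 1.20 CPM, were too low to be tested there. Pth, a parathyroid gene, was at 0.285 to 4.56 CPM at day 5 and 0 to 0.238 CPM at day 11, and did not pass in edgeR but was called by DESeq2 and at an unadjusted p under 0.05.

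The genes that keratins work with did not all follow them, and their counts stand beside the 41.3% of all genes called between day 11 and day 5. The 6 simple keratins of the list are the thyrocyte keratins named above together with Krt20 and Krt23. All 6 were higher at day 11 than at day 5, and the median over the 6 was 3.01. Krt23 (log2 fold change 4.17, edgeR adjusted p = 3.00e-06) and Krt7 (3.83, edgeR adjusted p = 7.87e-07) led. Of the 8 tested suprabasal keratins of 9, 2 rose (Krt80 by 1.52 and Krt4 by 0.87, log2) and 3 fell, among them Krt1 (-2.79) and Krt10 (-2.31), the partners of differentiating epidermis. Of 10 genes for the adhesion and identity of basal cells, 7 fell and none rose, with a median of -0.69. Itga6, the integrin of hemidesmosomes, fell by 1.25 and Lamb3, a chain of laminin-332, by 1.19 on the log2 scale. Of 10 genes that anchor keratin at desmosomes and hemidesmosomes, 4 rose and 5 fell, with the linkers Eppk1 (1.90) and Pkp2 (0.98) higher and Dsp (-1.62) and Pkp3 (-1.10) lower.

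Of 12 listed names for signals of keratinocyte activation, 11 had a row among the deposited genes and 10 were tested. Of these, 3 rose and 3 fell, beside 21.3% of all genes higher and 20.1% lower. The alarm cytokine Il1a rose by 4.38 and the growth factor gene Hbegf by 1.15 on the log2 scale, while S100a9 (-5.94) and S100a8 (-5.02), the calprotectin subunits that accompany Krt6 and Krt16 in activated skin, were lower. Among 10 regulators of keratin genes, 1 rose and 3 fell, so that the share called was near the 41.3% of all genes. Jun, a subunit of AP-1, was 2.83 higher on the log2 scale, and Nfe2l2 (-1.07), the regulator of the antioxidant response, and Tfap2c (-1.06), an AP-2 factor, were lower.

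The second question was how irradiation at day 5 changed the keratins 2 days later. At 2 Gy none of the 7 passed in edgeR, beside 0.124% of all genes. At an unadjusted p under 0.05 it was 1, Krt17, which DESeq2 also called. At 4 Gy 1 passed, Krt17, beside 1.63% of all genes. At 7 Gy 2 passed, Krt17 and Krt6a, beside 6.95%, and with the replicate block 3, beside 11.4%. The median log2 fold change of the 7 at 7 Gy was 0.33, against 0.01 for all genes.

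Krt17 had the largest log2 fold change of the 7 at every dose. From 805, 806 and 802 CPM without irradiation it stood at 1062, 1684 and 980.2 after 2 Gy, at 1754, 1478 and 1382 after 4 Gy and at 1700.0, 1787 and 1385 after 7 Gy. Every irradiated library lay above every non-irradiated one. The same held for 7.65% of all genes at 2 Gy, 14.0015% at 4 Gy and 13.9997% at 7 Gy. For Krt17, 4 and 7 Gy overlapped. The log2 fold change was 0.60 (SE 0.167, edgeR adjusted p = 0.338) at 2 Gy, 0.88 (SE 0.168, edgeR adjusted p = 0.0158) at 4 Gy and 1.00 (SE 0.168, edgeR adjusted p = 0.00258) at 7 Gy, a fold of 2.01. Without the mTG12 library at 2 Gy the first value was 0.30 (edgeR adjusted p = 0.608). That library had 3.22% of its counts from mitochondrial genes, against 7.36% and 6.43% in the other two of its group, and the part of this in its keratin values was not tested. The call at 7 Gy held in all 6 fits that left out a library, and the one at 4 Gy in 2 of 6: without each of the 3 non-irradiated libraries, or without mTG11 at 4 Gy, the adjusted p was between 0.0521 and 0.0777. After 7 Gy Krt17 still lay below all day 5 libraries.

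Krt6a rose at 7 Gy by a smaller amount. It was at 3994, 3987 and 4069 CPM without irradiation and at 4819.7, 5185 and 5675 after 7 Gy, with no overlap and all 3 cultures higher. The share of all genes that were higher without overlap at 7 Gy is given with Krt17. For Krt6a the log2 fold change was 0.37 (SE 0.0939, edgeR adjusted p = 0.0275), a fold of 1.29. The call depended on single libraries: it was lost in 5 of the 6 fits that left out a library (edgeR adjusted p of 0.0640 to 0.110, all but the one without mTG11 at 7 Gy) and when only the 2 groups were fitted (0.0541). Krt6b was at 1494, 1776 and 2238 CPM after 7 Gy, which overlapped its 1515, 1435 and 1435 without irradiation, and its log2 fold change was 0.32 (95% interval 0.01 to 0.64, edgeR adjusted p = 0.224).

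Krt16 passed in some fits. It stood at 764, 877 and 719.7 CPM without irradiation, at 798, 1276 and 570.1 after 2 Gy, at 1045, 1072 and 1023 after 4 Gy and at 993, 1364 and 1317 after 7 Gy. The 4 and 7 Gy libraries lay above all non-irradiated ones, as for the shares of all genes given with Krt17. The 2 Gy libraries of Krt16 spread across the non-irradiated ones, with mTG12 highest. At 7 Gy the log2 fold change was 0.63 (SE 0.210, edgeR adjusted p = 0.0922), and with the block 0.63 (SE 0.162, edgeR adjusted p = 0.0176). Fitted with only the 2 groups it also passed (edgeR adjusted p = 0.0239). Over the 4 doses its linear trend was 0.09 log2 units per Gy (edgeR adjusted p = 0.0415, kept in 4 of 12 fits that left out a library). Without the 2 Gy library of mTG12 the trend was 0.10 (edgeR adjusted p = 0.00825), and the 8 fits that lost the call had adjusted p from 0.0540 to 0.135. The fits that lost it lacked mTG11 or mTG14 at 0 Gy, mTG11 at 2 Gy, any of the 4 Gy libraries, or mTG12 or mTG14 at 7 Gy. By the same test Krt17 (0.14 per Gy, edgeR adjusted p = 0.00444) and Krt6a (0.06 per Gy, edgeR adjusted p = 0.0103) passed, in all 12 such fits each, so 3 of the 7 had a trend beside 8.62% of all genes. With the block 4 did, Krt15 being the further one, beside 11.9%.

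None of the basal keratins passed at this day. At 7 Gy Krt5 was at 4672, 5597 and 5147 CPM (log2 fold change 0.14, 95% interval -0.08 to 0.36), Krt14 at 4259, 5508 and 4949 (0.25, -0.13 to 0.63) and Krt15 at 1092, 1284 and 1131 (0.33, 0.01 to 0.64). Their edgeR adjusted p was 0.462, 0.454 and 0.219. The result for Krt15 depended on a single library: without mTG11 at 0 Gy, its highest value there, its log2 fold change was 0.54 (edgeR adjusted p = 0.0274), and its trend with dose passed without that library (edgeR adjusted p = 0.00483) and with the block (edgeR adjusted p = 0.0315). Culture mTG11 was itself lower for Krt15 after 7 Gy, whereas mTG12 and mTG14 were higher.

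**Figure D3:**
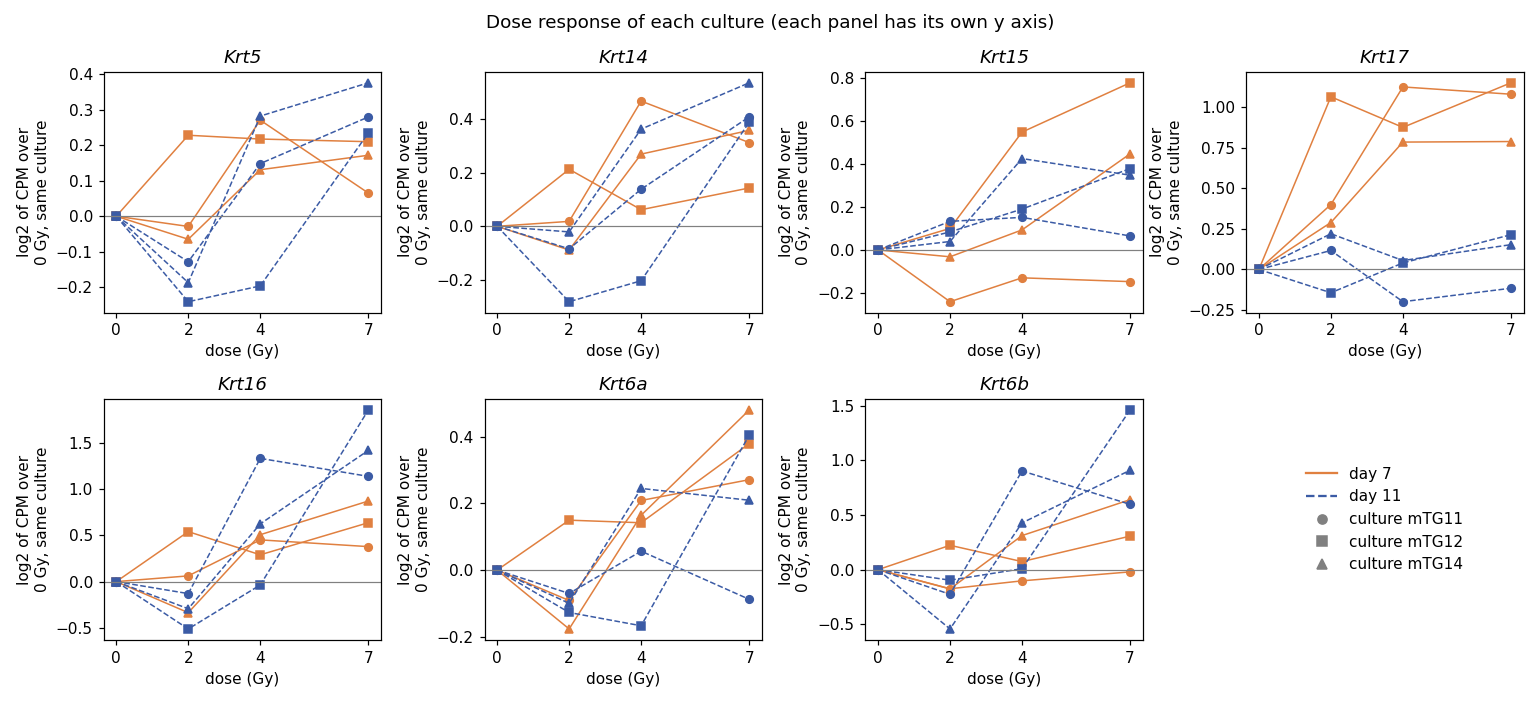
Log2 of the CPM after irradiation over the CPM of the non-irradiated library of the same culture and day, against dose in Gy; orange lines are day 7, dashed blue lines day 11, symbols are cultures, and each panel has its own y axis. At day 7 the Krt17 lines of all 3 cultures lie above 0 at each dose, reaching 0.79 to 1.15 at 7 Gy, while at day 11 they stay between -0.20 and 0.22. The day 11 lines of Krt16 and Krt6b reach 0.60 to 1.86 at 7 Gy.

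Other genes of the lists at 7 Gy and day 7 stand beside the 6.95% of all genes called there. The epidermal growth factor receptor ligands Areg (log2 fold change 1.00, edgeR adjusted p = 6.26e-05) and Ereg (0.83, edgeR adjusted p = 0.0150) were the 2 of 11 tested activation signals that rose. Of the 10 keratin regulators Fosl1, an AP-1 subunit, rose by 1.16 on the log2 scale (edgeR adjusted p = 0.00653) and 3 fell, led by Gli2 (-2.20, edgeR adjusted p = 0.0407) and Trp63 (-0.64, edgeR adjusted p = 0.00217), the master regulator of stratified epithelium. Trp63 also stands in the list of 10 basal adhesion and identity genes. Of the 6 simple keratins 1 rose, Krt20 (0.80, edgeR adjusted p = 0.0178), and of the 18 tested suprabasal keratins and anchors none passed in edgeR, with 4 at an unadjusted p under 0.05 and 1 in DESeq2. Of 11 tested markers of fibroblasts, multiciliated and immune cells none passed in edgeR, at an unadjusted p under 0.05 or in DESeq2. The fibroblast markers summed to 45.9 to 113 CPM after 7 Gy and to 21.0 to 108 CPM without irradiation.

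The same doses were compared at day 11, 6 days after irradiation. None of the 7 passed in edgeR at 2 Gy, beside 0% of all genes, and none at an unadjusted p under 0.05 or in DESeq2, which called 1 gene in all. None passed at 4 Gy, beside 0.00502%, with 1 at an unadjusted p under 0.05 (Krt15) and 0 in DESeq2. At 7 Gy none passed in edgeR without the block, beside 1.52% of all genes, with 3 at an unadjusted p under 0.05 (Krt15, Krt16 and Krt6b) and 0 in DESeq2. With culture as a replicate block 3 passed at 7 Gy, Krt16, Krt6b and Krt14, beside 6.51% of all genes.

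Krt16 at day 11 was at 30.4, 103 and 50.04 CPM without irradiation, at 27.7, 72.6 and 40.8 after 2 Gy, at 76.5, 101 and 77.1 after 4 Gy and at 66.8, 375 and 134 after 7 Gy. All 3 cultures were higher at 7 Gy than at 0 Gy, but the groups overlapped, since mTG12 was the highest in both. The log2 fold change at 7 Gy was 1.60 (SE 0.538, edgeR adjusted p = 0.168) without the block and 1.49 (SE 0.246, edgeR adjusted p = 0.00180) with it. Without the mTG12 library at 7 Gy the value without the block was 0.69 (edgeR adjusted p = 0.584). Even the highest value, 375 CPM, was below the lowest at day 7, 570.1 CPM.

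Krt6b was at 185, 245 and 274 CPM without irradiation, at 158, 229 and 188 after 2 Gy, at 346, 247 and 368 after 4 Gy and at 279.7, 675 and 514 after 7 Gy. The 7 Gy libraries lay above the non-irradiated ones, mTG11 only narrowly, and the same held for 13.0% of all genes. At 7 Gy the log2 fold change was 1.01 (SE 0.265, edgeR adjusted p = 0.0798), with the block 0.98 (SE 0.210, edgeR adjusted p = 0.0103). Without mTG12 at 7 Gy it was 0.74 (edgeR adjusted p = 0.240), and without mTG11 at 7 Gy 1.30 (edgeR adjusted p = 0.0251). Krt6b was also the only member of the 7 with a dose trend at day 11 without the block, beside 2.51% of all genes (0.17 log2 units per Gy, edgeR adjusted p = 0.0325). That call was lost without mTG11 at 0 Gy, mTG12 at 2 Gy, mTG12 at 7 Gy or mTG14 at 7 Gy, with edgeR adjusted p of 0.0519 to 0.142. With the block 3 had a trend, Krt16 (0.24, edgeR adjusted p = 0.00196), Krt6b (0.16, edgeR adjusted p = 0.00886) and Krt14 (0.07, edgeR adjusted p = 0.0132), beside 6.80% of all genes. Without the block the Krt16 trend was 0.26 (edgeR adjusted p = 0.0650), and without mTG12 at 7 Gy it was 0.12 (0.409). It passed without mTG12 at 0 Gy (0.34, edgeR adjusted p = 0.0215) or mTG11 at 7 Gy (0.30, edgeR adjusted p = 0.0408). The ratio of Krt6b to Krt6a was 0.122 ± 0.0190 without irradiation and 0.219 ± 0.0560 after 7 Gy.

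Krt14 at 7 Gy differed more between cultures than between doses. It was at 810.4, 1809.6 and 1116 CPM without irradiation and at 1077, 2370.0 and 1619.95 after 7 Gy. Each culture rose by a like amount, 0.39 to 0.54 on the log2 scale of CPM, while the cultures themselves differed more than that. The log2 fold change was 0.40 (SE 0.326, edgeR adjusted p = 0.642) without the block and 0.41 (SE 0.0797, edgeR adjusted p = 0.00631) with it.

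Krt17, which rose at day 7, stood at 912, 862 and 829.8 CPM without irradiation at day 11, at 989, 780.3 and 966 after 2 Gy, at 795, 886 and 862 after 4 Gy and at 842, 999.5 and 922 after 7 Gy. The doses overlapped. The log2 fold change at 7 Gy was 0.05 (95% interval -0.15 to 0.24, edgeR adjusted p = 0.885). Krt6a was at 1728, 2465 and 2339.7 CPM after 7 Gy (0.15, -0.15 to 0.44), Krt5 at 2648, 3467 and 3055 (0.25, -0.04 to 0.54) and Krt15 at 899, 991 and 937 (0.22, 0.01 to 0.44). These 3 did not pass, with or without the block. Of the 53 tested genes in the lists of simple and suprabasal keratins, anchors, basal genes, signals and regulators, none passed in edgeR at 7 Gy and day 11, with 12 at an unadjusted p under 0.05 and 4 in DESeq2. The multiciliated markers, with 1 of 5 lower, summed to 6.83 to 20.1 CPM after 7 Gy and to 24.7 to 51.2 CPM without irradiation. Fibroblast markers, with none of 6 called, summed to 16.2 to 74.7 CPM and to 5.24 to 37.8 CPM. The part of these cells in the keratin values was not tested.

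The difference between the days was tested directly, as the interaction of 7 Gy with day in 1 fit of 24 libraries. Krt17 passed (-0.93 on the log2 scale, SE 0.202, edgeR adjusted p = 0.00973), beside 3.01% of all genes, and it did so in all 12 fits that left out a library. The response of the other 6 was not shown to differ between the days: the values were 1.01 for Krt16 (95% interval -0.25 to 2.28), 0.73 for Krt6b (0.06 to 1.39, edgeR adjusted p = 0.300), 0.18 for Krt14 (-0.65 to 1.01), 0.14 for Krt5 (-0.21 to 0.50), -0.07 for Krt15 (-0.46 to 0.32) and -0.19 for Krt6a (-0.55 to 0.16). Without the day 11, 7 Gy library of mTG12 the Krt16 value was 0.08, and without its day 11, 0 Gy library 1.61, and neither passed.

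**Figure D4:**
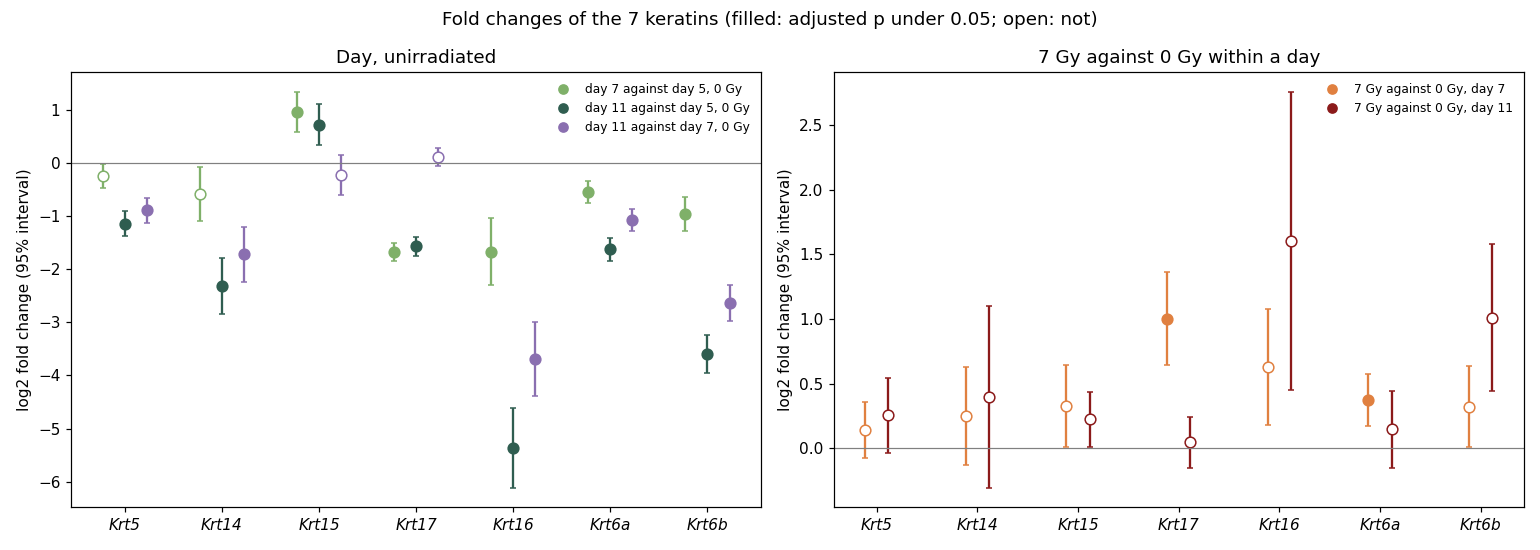
Log2 fold changes of the 7 keratins with 95% intervals, between days without irradiation (left) and between 7 and 0 Gy within a day (right); filled points passed at an edgeR adjusted p under 0.05 without the block. Krt17 stands at 1.00 for 7 Gy at day 7 and at 0.05 at day 11, and Krt16 has the widest interval at day 11 (0.45 to 2.76).

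The fall from day 7 to day 11 was also seen within each dose. At 2, 4 and 7 Gy, 6 of 7 members were lower at day 11, all but Krt15 each time. These counts stand beside 17.2%, 17.1% and 12.3% of all genes called, and 9.68%, 9.43% and 6.17% called lower. The log2 fold changes of Krt16 at the 3 doses were -4.24, -3.58 and -2.68, those of Krt6b -2.90, -2.25 and -1.91, and those of Krt14 -1.94, -1.87 and -1.54. Without the day 11 library of mTG12 the Krt16 value at 7 Gy was -3.59 (edgeR adjusted p = 1.33e-05), next to that at 4 Gy, so no order by dose is read from these values. Krt5 ranged from -1.14 to -0.75 and Krt6a from -1.27 to -1.14 on the same scale. Krt17, which did not pass between these days without irradiation, had log2 fold changes of -0.45 (edgeR adjusted p = 0.0302), -0.81 (0.000303) and -0.82 (0.000489). The value at 2 Gy rested on single libraries. Without mTG12 at day 7 it was -0.15 (edgeR adjusted p = 0.443), without mTG12 at day 11 -0.34 (0.182), without mTG14 at day 11 -0.47 (0.0617), and with only the 2 groups fitted -0.43 (0.158). Krt15 had log2 fold changes of -0.07, -0.09 and -0.31, and the last passed with the block (edgeR adjusted p = 0.0421), so that all 7 did at 7 Gy, beside 17.2%.

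Ordered by mean CPM, day 5 stood first among the 9 groups for 6 of the 7 genes and last for Krt15. For Krt14, Krt17, Krt16, Krt6a and Krt6b the day 5 libraries did not overlap with those of the next group, while for Krt5 they overlapped with 4 Gy at day 7 (5339 CPM on average). Of all genes, 27.5% were lower in each day 7 library than in each day 5 library without irradiation, as were 6 of the 7 keratins. For Krt5, Krt14, Krt16, Krt6a and Krt6b all day 7 groups stood above all day 11 groups, with a gap between the last group of day 7 and the first of day 11. Without irradiation 18.9% of all genes were lower in each day 11 library than in each day 7 library. Within a day neighbouring doses overlapped for these 5 genes, except that for Krt6a at day 7 the groups of 7, 4 and 0 Gy stood apart. For Krt17 the lowest group was day 7 without irradiation (804 CPM), which overlapped with 4 Gy at day 11 (848 CPM). For Krt15 the 8 later groups, 786 to 1169 CPM on average, overlapped from neighbour to neighbour, and day 5 stood apart at 530.2 CPM.

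For some genes the cultures kept an order. For Krt5, Krt14 and Krt16, mTG12 was above mTG11 in all 9 groups, with a median ratio of 1.20, 1.67 and 1.37, and mTG12 was the highest culture in 8 of 9 groups for each of these genes. The ratio for Krt16 reached 5.60 at 7 Gy and day 11. For Krt6a mTG14 was the highest in 6 groups, and for Krt15 mTG11 in 5. Which mouse stands behind which culture name is not given by the labels used here.

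Over the 27 libraries, which share 3 cultures and the same days, Krt5, Krt14, Krt16, Krt6a and Krt6b ran closely together, with Pearson's r of log2 (TMM-scaled CPM + 1) between 0.948 and 0.986 for each pair. Krt17 had an r of 0.697 to 0.770 with these 5, and Krt15 an r of -0.424 to -0.0910 with the other 6. These are descriptions with no test, since the points are days and doses of the same cultures. Of 9537 genes whose mean over the libraries reached 10 CPM, those most like Krt5 were Jup (r = 0.981), the plakoglobin of desmosomes, Dhrs1 (0.977) and Them5 (0.974). For Krt14 they were Lmna (0.981), which encodes nuclear lamins A and C, Serpinb5 (0.979), the maspin gene of basal epithelium, and Jup (0.974). Krt16 had Serpinb5 (0.987), Them5 (0.985) and Gm11597 (0.983), and the last shares sequence with Krt16, as given above.
Krt6a was closest to Spink5 (0.970), a protease inhibitor gene of stratified epithelium, Syngr2 (0.966) and Itga6 (0.965), and Krt6b to Spink5 (0.987), Teddm3 (0.978) and Them5 (0.977). The 2 genes that went their own way had other neighbours. Krt17 was most like Gm15459 (0.951), the chaperonin subunit gene Cct3 (0.950) and the heat shock cognate gene Hspa8 (0.949), and Krt15 most like Dusp10 (0.912), a phosphatase of stress kinases, Rab5b (0.878) and Anxa1 (0.877).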

How the data were processed

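RNA of 27 mTGO libraries (9 groups of 3) was measured by Smart3SEQ. The authors deposited 1 table of estimated counts for 50559 genes, of which 15491 had none, from 75-base single reads aligned to GRCm39. The submitters' processing notes name STAR and edgeR, and the counting tool and annotation are not given in the sources used here. Of the values above 0, 56.3% were whole within 0.001, so counts were rounded before testing. Totals ranged from 2528866 to 5723150 counts (median 3758142), and limits from 3 counts cover counting error only.

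Genes with at least 10 counts summed over a fit were tested in R 4.3.3 by the quasi-likelihood method of edgeR 4.0.16 with TMM factors and Benjamini-Hochberg adjustment (threshold 0.05). Dose was tested as groups and as a linear term. Alternatives were DESeq2 1.42.0, no filter, no TMM factors, only the compared groups, each library left out, and culture as a replicate block. The column names carry the cultures, which pair the samples: deviations from group means of libraries of the same culture correlated with a mean r of 0.334 over 108 pairs (107 above 0.1, lowest 0.0807), and those of different cultures with -0.167 over 216 pairs. Calls on simulated counts were checked first.

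The 7 keratins were always named, with up to 2 called genes in each direction from each list and the 3 genes most like each keratin. Members and lists were chosen with earlier results of these data known. Sequences came from GRCm39 and GENCODE M39. Protein sequences were not analysed here. Some genes that the lists hold, and 1 promoter window, are not reported here.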

Additional observations from a re-analysis of the deposited data

Results flagged for a closer look

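The response of Krt17 to 7 Gy differed between the days. Its log2 fold change against the non-irradiated libraries was 1.00 (SE 0.168) at day 7, with 3 of 3 cultures higher, and 0.05 (SE 0.0912) at day 11, with 2 of 3 higher. The difference, day 11 minus day 7, was -0.93 in a single edgeR fit of both days (SE 0.202, 95% interval -1.34 to -0.51, edgeR adjusted p = 0.00973). It ranged from -1.03 to -0.87 when each library was left out. With culture as a replicate block it was -0.92 (edgeR adjusted p = 0.00249).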

How the results depend on the processing

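The counts of keratins past the threshold depended on the processing. Between day 7 and day 5 the count was 5, against 6 by DESeq2 and 7 without the filter on low counts, without TMM factors, with only the compared groups or with the replicate block. After irradiation, the counts without the filter on low counts were 1 at 2 Gy, 2 at 4 Gy and 5 at 7 Gy at day 7. At day 11 they were 2 at 4 Gy, 3 at 7 Gy and 2 for the trend, and for the interaction 3. With the filter the same counts were 0, 1, 2, 0, 0, 1 and 1. The fit without the filter differed only in the genes kept, and why it called more keratins was not tested. DESeq2 called 1 at 2 Gy and day 7. With the replicate block 3 passed at 7 Gy and 3 for the trend at day 11, and the block changed no call of a keratin besides those given with the results. With each library left out, the count was 0 to 1 at 4 Gy and 1 to 2 at 7 Gy at day 7, 0 to 1 at 7 Gy and 0 to 2 for the trend at day 11. Without TMM factors the median of all genes between day 7 and day 5 moved from 0.04 to -0.11 (log2), the calls from 2211 higher and 1775 lower to 1531 and 2740, and Krt5 and Krt14 also passed. With TMM factors the mean level of Krt17 was 2647 CPM at day 5 and 819.9 at day 7 without irradiation, and that of Krt6a 4094 at day 7. The causes were not tested.

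The log2 fold changes that took either sign when each library was left out belonged to no call. At day 7 and 2 Gy they ranged from -0.121 to 0.0981 for Krt5, -0.248 to 0.198 for Krt14, -0.242 to 0.109 for Krt15, -0.240 to 0.380 for Krt16, -0.169 to 0.0037 for Krt6a and -0.201 to 0.0264 for Krt6b, and at 4 Gy from -0.0398 to 0.310 for Krt15 and -0.0779 to 0.131 for Krt6b. At day 11 and 2 Gy they ranged from -0.478 to 0.171 for Krt14, -0.0249 to 0.131 for Krt15, -0.900 to 0.177 for Krt16 and -0.0136 to 0.109 for Krt17, and at 4 Gy from -0.0472 to 0.165 for Krt5, -0.198 to 0.383 for Krt14 and -0.0978 to 0.153 for Krt6a. The trend of Krt17 at day 11 was -0.0026 to 0.0098 per Gy, Krt15 between the days at 2 Gy -0.146 to 0.0705, and the interaction -0.127 to 0.539 for Krt14 and -0.276 to 0.0706 for Krt15. Within these ranges other single libraries also turned the sign. At day 7 and 2 Gy the value without mTG11 at 0 Gy was -0.0139 for Krt5 and -0.0838 for Krt14, and at day 11 and 2 Gy it was 0.0445 for Krt14 without mTG11 at 2 Gy. At day 11 and 4 Gy, Krt5 was at -0.00038 without mTG14 at 4 Gy, Krt6a at -0.0019 without mTG11 at 0 Gy, and Krt14 at -0.0088 without mTG14 at 0 Gy, -0.117 without mTG12 at 4 Gy and -0.0182 without mTG14 at 4 Gy. Between the days at 2 Gy Krt15 was at 0.0176 without mTG14 at day 11, and the interaction of Krt14 was -0.0798 without mTG11 at day 11 and 0 Gy. The 3 libraries of a group limit what could be called, and the part of the reads divided between close copies, if any, is unknown.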
